A study of Rattus norvegicus with 16 samples.

Results

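Lcn2 encodes lipocalin-2, a small secreted protein of innate immunity, and the values below follow its transcript in rat pituitary cells exposed to 3 ligands. The gene was found by its symbol in the array annotation: 1 probe set, 17771287, carried the symbol Lcn2 and no other, out of 14557 genes with a single symbol and 36685 probe sets in all. It was chosen by its log2 levels on these same 16 arrays, their spread and their correlation with other genes, so its levels, differences and correlations are a description, without a test.

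The study used 16 Affymetrix arrays of cells labelled as corticotropes, the ACTH-making cells of the anterior pituitary, isolated from Wistar rats aged 21 days by an antibody on magnetic beads; the protocol names the CRH receptor CRHR1 as its target, the design text CRH. There were 4 arrays each of cells given extracellular nicotinamide phosphoribosyltransferase (eNampt) for 24 h, interleukin-6 (IL-6) for 24 h or corticotropin-releasing hormone (CRH) for 24 h, and 4 control arrays whose titles give no time. The culture medium of all groups, DMEM/F12, held 0.05 µg/l FGF and 10% serum from fetal calves, and each array took 5 ng of RNA. Neither the doses of the ligands nor the number of animals per array were found in the labels. Since the labels do not tie the arrays of 1 group to different cultures or animals, the spread behind each p-value is that between arrays and may be technical.

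Lipocalin-2 binds siderophores, the small molecules with which bacteria collect iron, and so withholds iron from them. Neutrophils store it in granules, and many other cell types make it when interleukin-1, tumour necrosis factor, interleukin-17 or bacterial endotoxin activates NF-kB. In mouse cells the NF-kB cofactor encoded by Nfkbiz and the C/EBP factors are needed for this induction, and in liver IL-6 acts on the gene through STAT3.

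The DNA just upstream of the gene is shown because the sequences that NF-kB and C/EBP factors are known to bind can be looked for there. The stretch below is the RefSeq sequence of GRCr8 at chr3:36081852-36082030 on the minus strand, 179 bases from position -250 to -72 relative to the start of the transcript used. The 71 bases nearest the start lie inside a longer annotated transcript and were left out. Capitals mark, from left to right, an NF-kB motif (GGGA, any 2 bases, TTCC) read on the opposite strand and a C/EBP motif (TTGCNNAA).
Lcn2: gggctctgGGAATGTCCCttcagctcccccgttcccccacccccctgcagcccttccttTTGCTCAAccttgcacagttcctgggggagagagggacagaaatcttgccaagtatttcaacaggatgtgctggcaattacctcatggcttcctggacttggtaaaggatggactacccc

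The first match, which reads GGGACATTCC in the orientation of the motif, spanned positions -242 to -233. The second, TTGCTCAA, spanned -191 to -184. Both strands of the 250 bases upstream were searched, and the matches did not overlap each other. Of 33469 rat promoters, 1.08% held the NF-kB motif, 9.22% the C/EBP motif and 0.117% held both. Among the 114 other genes of the pathway lists used here that have such a window, 9 (7.89%) held the NF-kB motif, namely Ccl7, Cxcl1, Cxcl6, Il6, Nfkb2, Nfkbia, Nfkbiz, Steap4 and Tnfaip3. Cxcl6, Il6 and Steap4 held both motifs. The STAT motif TTCNNNGAA, present in 7.67% of promoters, and the glucocorticoid receptor motif (AGAACA, any 3 bases, TGTTCT), present in 0.012%, were not found in the 250 bases of Lcn2. These letters were chosen with the Lcn2 sequence in view, and a match is not a binding site.

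Before the values of Lcn2, 2 features of the arrays need stating. The 90th percentiles of control arrays 3 and 4 were 4.585 and 4.43 (log2), below those of control arrays 1 and 2 (5.37 and 5.51) and of the 12 ligand arrays (5.07 to 5.45), while the array medians all lay between 1.82 and 2.02. The median difference of all genes was 0.06 (log2) for eNampt against control, 0.09 for IL-6 against control and 0.10 for CRH against control. The label of the cells was borne out in part. Pomc, which encodes the precursor of ACTH, was between 7.29 and 8.73 on all arrays, but Tbx19, the transcription factor that defines corticotropes, was between 1.20 and 2.03, near or below the array medians, and Neurod1 was below the array median on all 16. Of 7 measured genes of other endocrine cells, 4 were above the median on all arrays, among them Prl, the prolactin gene, between 10.1 and 11.1, while Tshb, the thyrotropin gene, averaged 1.15 after eNampt and 1.17 in control. The fibroblast collagen gene Col1a2 was between 5.99 and 7.98. The cells that made Lcn2 therefore cannot be named from these arrays, and fewer cells of a type cannot be told apart from less RNA per cell.

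Lcn2 was highest after eNampt. Its log2 expression was 8.79, 8.59, 8.45 and 8.53 on eNampt arrays 1 to 4. After IL-6 it was 6.07, 6.08, 7.08 and 6.87, and after CRH 7.21, 6.70, 5.69 and 6.74. On control arrays 1 to 4 it was 6.68, 6.28, 3.97 and 5.24. Every eNampt array lay above each of the other 12, with a gap of 1.24 (log2) between the lowest eNampt array and the highest of the others, CRH array 1. Control array 3 was the lowest of all 16, and the IL-6, CRH and control ranges overlapped one another. Among all genes, groups did not overlap on the higher side for 2.81% in eNampt against control, 1.22% in eNampt against CRH and 1.28% in eNampt against IL-6. That share was 2.41% for IL-6 against control, 2.05% for CRH against control and 1.33% for CRH against IL-6.

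**Figure D1:**
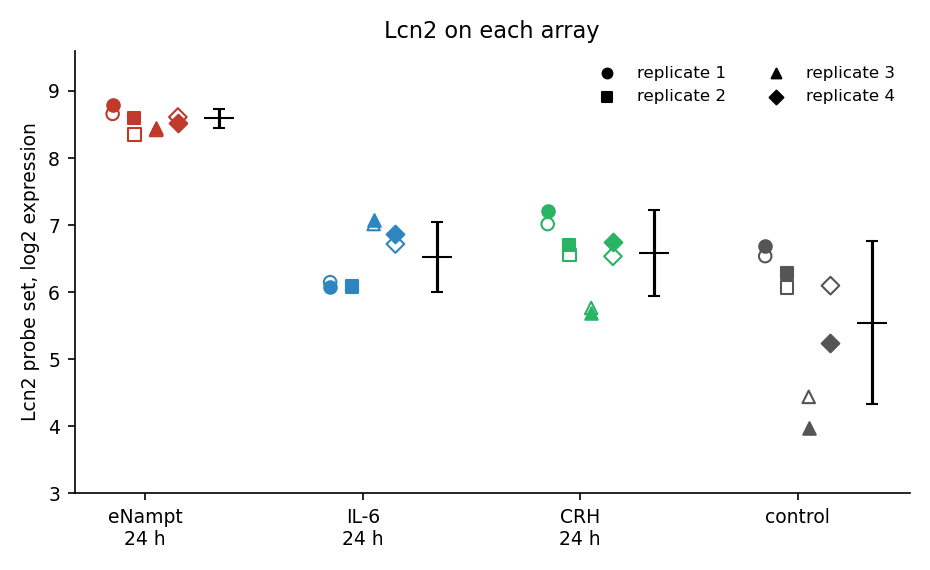
Log2 expression of the Lcn2 probe set (vertical axis) on each of 16 arrays, by group (horizontal axis); filled symbols are the deposited values, open symbols the values after repeated quantile normalization, symbol shape gives the replicate number, and the black bars are the mean and SD of the deposited values. The eNampt arrays sit between 8.45 and 8.79, above all others, and control arrays 3 and 4 are the 2 lowest points among the filled symbols.

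By group, Lcn2 averaged 8.59 ± 0.147 after eNampt, 6.59 ± 0.642 after CRH, 6.52 ± 0.527 after IL-6 and 5.54 ± 1.21 in control (SD, n = 4 each). The difference of means was 3.05 ± 0.487 (log2, SE of the fit over all genes) for eNampt against control, or 8.26-fold. Against the other ligands it was 2.01 ± 0.487 over CRH, or 4.01-fold, and 2.07 ± 0.487 over IL-6, or 4.19-fold. CRH and IL-6 differed by 0.06 ± 0.487, less than the spread within either group. In order of level, then, eNampt stood apart from CRH, while CRH and IL-6 as well as IL-6 and control were neighbours that overlapped.

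The IL-6 and CRH differences from control depended on the low control arrays. With all arrays they were 0.98 ± 0.487 and 1.04 ± 0.487, but only 2 of 4 IL-6 arrays and 3 of 4 CRH arrays were above the highest control array. Without control arrays 3 and 4 the 2 differences were 0.043 and 0.10, and without control array 3 alone they were 0.46 and 0.52. The difference for eNampt was 2.11 without control arrays 3 and 4 and 2.52 without control array 3. The differences of eNampt from CRH and from IL-6 use no control array, but their SE does, since the fit shares its estimate of spread over all groups. Fitted to only the arrays of the 2 groups compared, the SE was 0.304 against CRH and 0.257 against IL-6. The comparisons with control all use the same 4 control arrays, so these are not independent of one another.

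**Figure D2:**
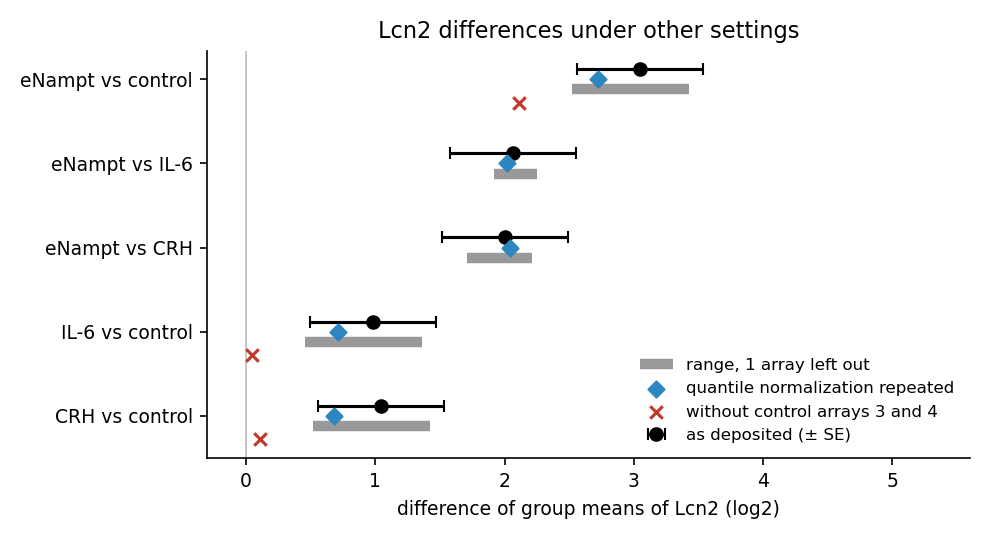
Difference of group means of Lcn2 (log2, horizontal axis) for 5 comparisons (vertical axis), as deposited with its SE (black), with 1 array of the pair of groups left out (grey range), after repeated quantile normalization (blue) and without control arrays 3 and 4 (red, comparisons with control). The eNampt differences do not go below 1.71 in any of these, whereas IL-6 and CRH against control come to 0.043 and 0.10 without control arrays 3 and 4.

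The spread of Lcn2 within groups also differed. Its SD of 0.147 after eNampt was smaller than the median SD of all genes in that group (0.307), and 18.7% of genes had a smaller one. In the control group its SD of 1.21 compared with a median of 0.354, and 93.9% of genes varied less. The SDs after CRH (0.642) and IL-6 (0.527) were larger than those of 74.7% and 74.0% of genes. These shares are over all genes, 6183 of which had a mean level up to 2 (log2). The spread of Lcn2 was not compared with that of genes of like brightness.

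Rank within an array does not depend on how the arrays were scaled against each other. Ranked by probe set signal among 14557 genes, with 1 as the brightest, Lcn2 stood at 81, 120, 107 and 91 on eNampt arrays 1 to 4, that is within the top 0.824%. It stood at 1033, 1050, 501 and 678 after IL-6 and at 504, 791, 1339 and 804 after CRH. On control arrays 1 to 4 it stood at 745, 1103, 2466 and 925. Control array 4, which was low on the log2 scale, thus had a rank inside the range of the IL-6 and CRH arrays, whereas control array 3 was last by either measure. Since probes differ in how brightly they report a transcript, these ranks order signals and not transcript numbers.

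**Figure D3:**
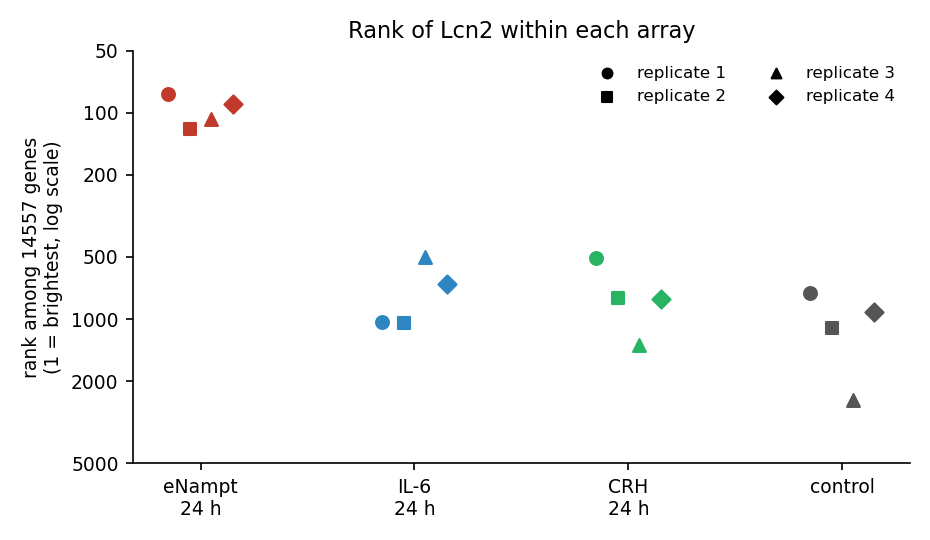
Rank of the Lcn2 probe set among 14557 genes on each array (vertical axis, log scale, 1 is the brightest), by group (horizontal axis), with symbol shape giving the replicate number. The eNampt arrays rank between 81 and 120, and the other 12 arrays between 501 and 2466.

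Few genes separated the eNampt arrays from all others. For 18 genes, or 0.124% of those measured, all 4 eNampt arrays lay above the other 12, and by the width of that gap Lcn2 was in place 2. Pla2g2a, which encodes a phospholipase of inflammatory fluids, had a gap of 1.28 (log2), Lcn2 of 1.24 and the central complement gene C3 of 0.65. The chemokine gene Ccl2 followed with 0.32 and the growth factor gene Csf2 with 0.31. These places were read from the same values for which Lcn2 was chosen and carry no test.

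Among the genes of its pathway, Pla2g2a and C3 were called. With limma and Benjamini-Hochberg adjustment over all genes, the 8 pathway lists had 116 measured genes of 151 listed, and these 2 passed an adjusted p of 0.05 for eNampt against control, where 0.0137% of all genes were called higher and 0% lower. The same 2 were called for eNampt against CRH and for eNampt against IL-6, with 0.0137% of all genes higher and 0% lower in each. In each of these comparisons they were the only 2 genes called among all 14557, so that share is these 2 genes themselves. The lists were chosen with earlier results of these data known, so the count is no measure of the pathway as a whole. For IL-6 and for CRH against control 0 of the 116 were called, with 0% of all genes called higher in both and 0.00687% and 0% lower. At an unadjusted p under 0.05 there were 7 higher and 2 lower after IL-6, and 2 higher and 1 lower after CRH. After eNampt there were 28 higher and 0 lower against control, 21 higher and 3 lower against CRH, and 24 higher and 0 lower against IL-6. Over all 14557 genes the same threshold was passed by 898 higher and 201 lower for eNampt against control, 373 and 345 against CRH and 254 and 236 against IL-6. It was passed by 644 higher and 162 lower for IL-6 against control and by 810 and 111 for CRH against control.

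Pla2g2a was at 5.75, 5.95, 3.94 and 5.30 on the eNampt arrays, against 2.39, 2.07, 2.52 and 1.85 on the IL-6 arrays and 2.66, 2.14, 2.42 and 2.28 on the CRH arrays. It rose by 3.03 ± 0.338 (SE, limma adjusted p = 0.00449) over IL-6 and by 2.86 ± 0.338 (0.00758) over CRH. C3 was at 6.33, 4.24, 6.35 and 6.08 after eNampt, against 2.64, 2.33, 3.59 and 3.05 after IL-6 and 2.70, 2.17, 2.77 and 2.56 after CRH. It rose by 2.85 ± 0.395 (limma adjusted p = 0.0290) over IL-6 and by 3.20 ± 0.395 (0.00758) over CRH. Outside eNampt both genes were between 1.85 and 3.59, near the array medians, so the size of these differences is uncertain. Lcn2 differed from them there, since it ranked among the brighter genes in every group. Relative to control, Pla2g2a rose by 2.87 ± 0.338 and C3 by 3.35 ± 0.395 after eNampt (limma adjusted p = 0.00433 for both). Both calls were lost when control arrays 3 and 4 were dropped (0.0519 for Pla2g2a and 0.0777 for C3). Fits to the arrays of only the 2 groups compared called neither gene in any of the 3 eNampt comparisons. The call of C3 against IL-6 held in 2 of 8 fits that left out 1 array and was lost without control arrays 3 and 4 (adjusted p = 0.0892), which lend it only their spread, and that of both genes against CRH was lost without CRH array 2 (adjusted p = 0.0527).

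**Figure D4:**
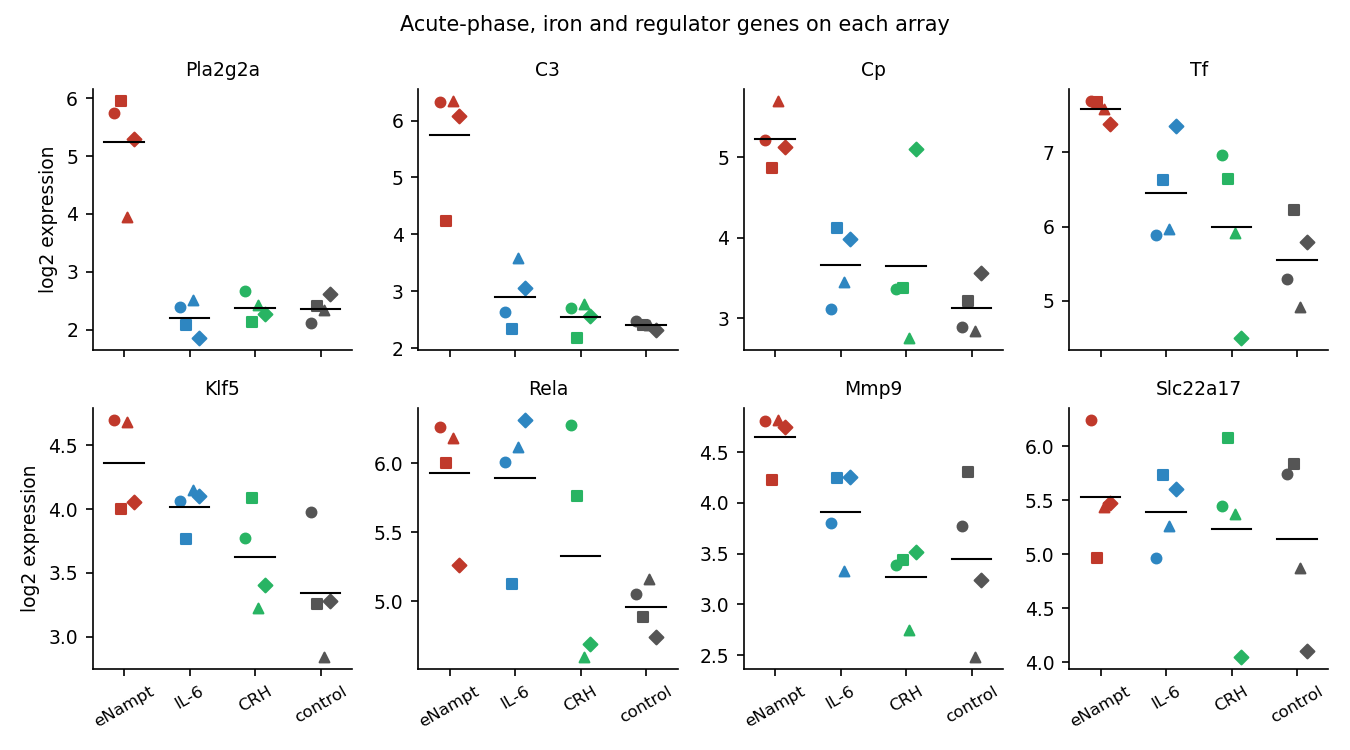
Log2 expression (vertical axes) of 8 genes named beside Lcn2 on each array, by group (horizontal axes), with symbol shape giving the replicate number as in the plot of Lcn2 levels and black lines the group means. Pla2g2a and C3 separate eNampt from all other arrays, Tf does so narrowly, and Slc22a17 overlaps in all groups.

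Genes that handle iron gave no call, although ceruloplasmin and transferrin had differences of about 2 on the log2 scale. Of 29 genes in this list 20 were measured, and limma called 0 for eNampt against control, with 5 higher and 0 lower at an unadjusted p under 0.05, next to 6.17% higher and 1.38% lower of all genes. Differences were above 0 in 15 of 20 with a median of 0.38, next to 0.06 for all genes, and 4 of 20 had groups that did not overlap on the higher side, next to 2.81% of all genes. Without control arrays 3 and 4 the median was 0.07 and 11 of 20 were above 0.

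Cp encodes ceruloplasmin, the copper enzyme that oxidises iron for loading onto transferrin. It was at 5.22, 4.87, 5.70 and 5.13 on the eNampt arrays and at 2.89, 3.22, 2.84 and 3.56 on the control arrays, a difference of 2.10 ± 0.403 (limma adjusted p = 0.130). It came to 2.17 when control arrays 3 and 4 were dropped. CRH array 4, at 5.10, reached the eNampt level, whereas the other CRH arrays and all IL-6 arrays were between 2.75 and 4.12. Tf, the transferrin gene, was at 7.70, 7.68, 7.59 and 7.39 after eNampt against 5.30, 6.22, 4.91 and 5.79 in control. That difference was 2.03 ± 0.469 (limma adjusted p = 0.209), and 1.83 without control arrays 3 and 4. The eNampt arrays were above all others for Tf, if narrowly, since IL-6 array 4 was at 7.36.

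Other members of the iron list varied more from array to array. Tfrc, the transferrin receptor gene, was at 3.12, 2.39, 4.73 and 2.91 after eNampt and at 2.39, 1.46, 1.57 and 1.97 in control (difference 1.44 ± 0.657, limma adjusted p = 0.655). Slc39a8, a metal transporter gene, differed by 1.31 ± 0.437 (0.508). Bmp6, which in liver controls the iron hormone hepcidin, differed by 1.08 ± 0.366 (0.516), and by 1.36 ± 0.366 after IL-6 (0.708), and neither passed the test.

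The measured partner genes of lipocalin-2 were 3 of 7 listed, and limma called 0 of them, with 2 higher and 0 lower at an unadjusted p under 0.05 (6.17% and 1.38% of all genes). Slc22a17, which encodes a proposed cell surface receptor for lipocalin-2, was at 6.25, 4.97, 5.44 and 5.47 after eNampt and at 5.74, 5.83, 4.87 and 4.11 in control. All 4 groups overlapped, and the difference was 0.39 ± 0.443 (limma adjusted p = 0.860), or -0.26 without control arrays 3 and 4. Mmp9, a gelatinase that in human neutrophils forms a complex with lipocalin-2, was at 4.80, 4.23, 4.82 and 4.75 after eNampt and at 3.77, 4.31, 2.48 and 3.24 in control. Its difference was 1.20 ± 0.338 (limma adjusted p = 0.402), and 0.61 without control arrays 3 and 4. Hgf, the hepatocyte growth factor gene, differed by 0.57 ± 0.245 (0.631) and was highest on eNampt array 1 (2.62), without which the difference was 0.26.

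The other lipocalins gave no call. Of 19 listed, 14 were measured, and their median difference between eNampt and control was -0.08, with 3 of 14 above 0. Limma called 0 of them, and 0 passed an unadjusted p of 0.05 in either direction. The members with the largest moderated t were Lcn6 (-0.35 ± 0.17, limma adjusted p = 0.679), the odorant-binding gene Obp1f (-0.58 ± 0.297, 0.681), the retinol-binding gene Rbp4 (-0.64 ± 0.343, 0.684) and Lcn9 (0.31 ± 0.179, 0.701). The Rbp4 difference was -0.18 without control array 1 (3.61), the highest of its group, and -1.07 without control arrays 3 and 4; that of Obp1f was -0.33 without those 2. Their mean levels, from 1.28 to 2.70 in these 2 groups, lay near or below the array medians, where little signal is left to compare.

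Receptors and adaptors through which Lcn2 is induced gave 0 calls among 16 measured genes of 21 for eNampt against control, with 1 higher at an unadjusted p under 0.05 (6.17% of all genes) and a median difference of 0.21. Tlr4, the endotoxin receptor gene, was between 1.44 and 1.87 after eNampt and between 1.57 and 1.91 in control, about the array median in both. Il6r, the IL-6 receptor gene, differed by -0.01 ± 0.326, and Il17ra, the interleukin-17 receptor gene, by 0.30 ± 0.341, or -0.02 without control arrays 3 and 4. Tnfrsf1a, the tumour necrosis factor receptor gene, differed by 1.00 ± 0.428 (limma adjusted p = 0.631) and Osmr, the oncostatin M receptor gene, by 0.98 ± 0.535 (0.689).

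Among the 10 cytokine genes whose products can induce Lcn2, all measured, the median difference was -0.01 and limma called 0, with 2 higher at an unadjusted p under 0.05 (6.17% of all genes). Il1b, the interleukin-1 beta gene, was at 2.43, 2.90, 1.67 and 1.98 after eNampt and at 1.63, 1.36, 1.32 and 1.70 in control (difference 0.74 ± 0.218, limma adjusted p = 0.412). Il1a, the interleukin-1 alpha gene, was high on eNampt array 2 (5.51) and control array 2 (3.97) and differed by 0.99 ± 0.568 (0.699). Il6 itself differed by 2.04 ± 0.812 (0.615), and by 0.70 without control arrays 3 and 4.

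Transcription factors and feedback genes of Lcn2 induction gave 0 calls among 22 measured of 28, with 4 higher and 0 lower at an unadjusted p under 0.05 (6.17% and 1.38% of all genes). Their median difference was 0.23, and -0.01 without control arrays 3 and 4. Klf5, a zinc finger factor of epithelial and muscle cells, was at 4.70, 4.00, 4.68 and 4.06 after eNampt and at 3.98, 3.26, 2.84 and 3.28 in control, a difference of 1.02 ± 0.257 (limma adjusted p = 0.259). Its eNampt and control arrays did not overlap, although control array 1 (3.98) came close to eNampt array 2. Rela, the NF-kB subunit gene, was between 5.26 and 6.27 after eNampt and between 4.74 and 5.16 in control (0.97 ± 0.367, 0.580). Its mean was 5.93 after eNampt and 5.89 after IL-6.

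Feedback inhibitors in this list had differences of similar size. Nfkbia, the NF-kB inhibitor gene, differed by 1.22 ± 0.390 (limma adjusted p = 0.467), and by 0.57 without control arrays 3 and 4. Zc3h12a, whose RNase degrades inflammatory transcripts, differed by 1.02 ± 0.324 (0.462), and by 0.87 without those arrays. Nfkb1 (0.30 ± 0.519), Stat3 (0.34 ± 0.529) and Cebpb (0.32 ± 0.177) differed less, and the first 2 were at -0.22 and -0.70 without control arrays 3 and 4. Nfkbiz and Cebpd, the cofactor and factor best known for Lcn2, had no probe set with a single symbol here.

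Chemokine and growth factor genes known to be induced with Lcn2 had the largest median difference of the pathway lists, 1.37 for eNampt against control, with 12 of 13 measured above 0. Limma called 0 of them, with 9 higher at an unadjusted p under 0.05 (6.17% of all genes), and 4 of 13 did not overlap on the higher side (2.81% of all genes). Without control arrays 3 and 4 the median was 0.79. Against CRH it was 0.90 with 13 of 13 above 0, and against IL-6 1.21 with 12 of 13. Csf2 was at 3.73, 3.96, 3.58 and 3.87 after eNampt, against 1.57, 2.11, 1.67 and 1.79 after IL-6, a difference of 2.00 ± 0.310 (limma adjusted p = 0.0630), which passed with median centring, the filter on dim genes, the intensity trend, array weights and only both groups. Like Lcn2 it was low on control array 3 (1.29) but, unlike Lcn2, it was lower after IL-6 than on 3 of the 4 control arrays. Ccl2 differed by 2.80 ± 0.647 (0.209), Csf1 by 1.67 ± 0.417 (0.246) and Cxcl6 by 1.02 ± 0.218 (0.206) between eNampt and control. Without control arrays 3 and 4 these were 2.76 for Ccl2, 0.98 for Csf1 and 0.79 for Cxcl6.

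The acute-phase and antimicrobial list, to which C3 and Pla2g2a belong, had 21 measured genes of 26. For eNampt against control 2 of them were called higher and 0 lower, and these 2 were the only genes called on the array (0.0137% of all genes). At an unadjusted p under 0.05 there were 5 higher and 0 lower (6.17% and 1.38% of all genes). Groups did not overlap on the higher side for 4 of 21 (2.81% of all genes). The median difference of the list was 0.16, next to 0.06 for all genes, with 18 of 21 above 0. Without control arrays 3 and 4 it was 0.08, next to -0.03 for all genes, with 14 of 21 above 0. Hp, the haptoglobin gene of the acute phase, was at 1.83, 4.47, 1.57 and 1.52 after eNampt and at 5.65, 2.01, 1.57 and 1.75 after IL-6, with 1 bright array in each of these groups. Sod2, the mitochondrial superoxide dismutase gene, named after its values were seen, differed by 1.69 ± 0.311 (limma adjusted p = 0.110).

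Neutrophils, the blood cells richest in lipocalin-2, left little signal. Of 12 markers 11 were measured, 1 was above the array median on all arrays, and S100a8 and S100a9, which define the cells, were below it on all 16. The array mean of the list was between 1.47 and 1.54 after eNampt, between 1.53 and 1.72 after IL-6, between 1.53 and 1.85 after CRH and between 1.52 and 1.71 in control. It was thus not higher on the eNampt arrays. The 10 measured macrophage markers of 12 averaged 1.84 to 2.30 after eNampt and 1.95 to 2.59 in control, with Ptprc and Adgre1 below the array median on all arrays. Cd14, a gene of the same list, was above it on all 16, averaging 4.58 ± 0.657 after eNampt and 4.48 ± 1.25 in control (SD, n = 4 each). Members of the list went both ways for eNampt against control, with 5 of 10 above 0 and a median difference of -0.05. Cd68 differed by 0.67 ± 0.29 (SE, limma adjusted p = 0.631) and C1qa by -0.63 ± 0.39 (0.725).

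Endothelial markers were as dim: the 6 measured of 8 averaged 1.47 to 1.57 after eNampt and 1.43 to 1.66 in control. Fibroblast and mural, folliculostellate and stem cell, and glial markers were brighter. The 7 measured fibroblast and mural markers of 9 averaged 4.60 to 5.70 after eNampt, 4.06 to 4.97 after IL-6, 4.44 to 5.03 after CRH and 3.61 to 4.91 in control. None was below the array median on all 16 arrays, and 4 were above it on all. All 7 were above 0 for eNampt against control, with a median difference of 0.45 next to 0.06 for all genes, and limma called 0. Dcn differed by 1.99 ± 0.781 (limma adjusted p = 0.61) and Pdgfra by 1.22 ± 0.560 (0.65), but Col1a2 by 0.02. Without control arrays 3 and 4 the median was 0.17 and 4 of 7 were above 0. The 7 measured folliculostellate and stem cell markers of 8 averaged 4.10 to 4.36 after eNampt and 3.65 to 4.52 in control. The 4 measured glial markers of 6 averaged 2.65 to 3.68 after eNampt and 2.53 to 3.09 in control. The part of these cells in the level of Lcn2 was not tested.

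Within groups, Lcn2 moved with the brightness of the array. The deviation of Lcn2 from its group mean correlated with that of the 90th percentile of the array at Pearson r = 0.80 and Spearman rho = 0.89 over 16 arrays. Without eNampt, r was 0.81 over 12 arrays, without control arrays 3 and 4 it was 0.73, and without the 2 arrays farthest from the median deviation of Lcn2, control arrays 1 and 3, it was 0.73. The arrays share their normalization, so both values carry any error of it.

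**Figure D5:**
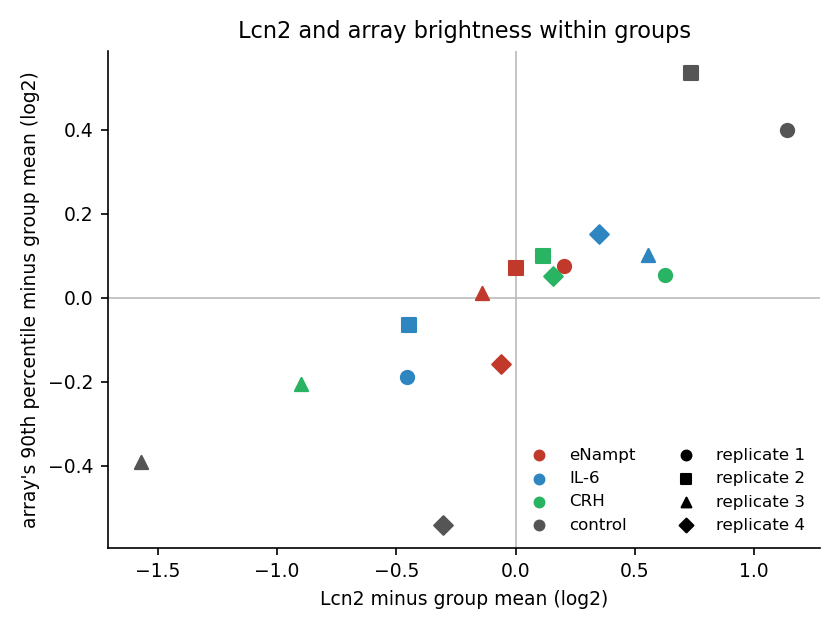
Deviation of the array's 90th percentile from its group mean (vertical axis, log2) against the deviation of Lcn2 from its group mean (horizontal axis, log2) on 16 arrays, with colour for group and shape for replicate number. Points run from control array 3 at -1.57 for Lcn2 to control array 1 at 1.14, and the eNampt arrays deviate from their mean by 0.20 at most.

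The same relation was found for other bright genes. Within-group r with Lcn2 had a median of -0.02 over the 6183 genes with a mean level up to 2, of 0.17 over 5113 genes above 2 and up to 4, of 0.34 over 2254 genes above 4 and up to 6, and of 0.52 over 1006 genes above 6. It was over 0.8 for 235 of 14556 genes and under -0.8 for 30, and after repeated quantile normalization for 50 and 24. These correlations are over arrays that share 1 normalization and are given as a description.

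Predicted loci and chemosensory receptor genes were left out of the highest and lowest r named here. The genes then most like Lcn2 within groups were Ppdpf (r = 0.93), the RNA-binding protein gene Hnrnpa1 (0.92) and the ribosomal protein gene copy Rpl31l10 (0.91). Next came the malate dehydrogenase gene Mdh1 (0.91), the replication clamp gene Pcna (0.91) and the ribosomal protein gene Rpl41 (0.91). Without control arrays 3 and 4 these 6 had r between 0.76 and 0.89, and after repeated quantile normalization between 0.81 and 0.93. The lowest r were those of SPATA45 (-0.93), the potassium channel gene Kcnj9 (-0.87), the lectin gene Clec4a2 (-0.86) and the pseudogene Styx-ps1 (-0.86), all with mean levels under 2. Rpl31l10 and Styx-ps1 have near-identical copies, so the transcript behind their probe sets is uncertain. C3 and Pla2g2a, which separated the same groups, had within-group r of 0.15 and 0.03 with Lcn2. Outside eNampt both genes were near the array medians, and on the eNampt arrays Lcn2 deviated from its mean by 0.20 at most. These 2 values of r therefore say little about whether the genes vary together.

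Over all 16 arrays, with each gene centred on its own mean, the smallest root mean square distance to Lcn2 was that of Tgm1, a transglutaminase gene (0.66 log2). It was followed by Jpt2 (0.73), the mitochondrial membrane protein gene Tspo (0.73), the cytokinesis gene Prc1 (0.74), the G protein subunit gene Gng12 (0.75) and the chloride channel gene Clic1 (0.75). Tgm1 was at 4.71, 4.65, 4.31 and 4.92 after eNampt, at 2.84, 3.33, 3.73 and 3.29 after IL-6 and at 3.53, 3.46, 1.87 and 2.67 after CRH. It was at 2.81, 4.18, 2.17 and 1.91 in control, where control array 2 came close to the lowest eNampt array. Among the pathway genes Nfkbia was nearest, at 0.78, in place 7 of all genes, with Csf2 at 0.80 in place 10 and Ccl20 at 0.80 in place 11.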

How the data were processed

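The deposited table holds log2 expression per probe set, made by the authors with RMA per the submitters' processing notes; no version, probe set level or genome build was found among the labels and headers. Gene symbols came from the platform annotation, brought to current names through Entrez identifiers for 14670 of 14824 probe sets with a single symbol. For 234 genes with several probe sets the one with the highest mean was used. All 16 arrays were fitted with limma 3.58.1 in R 4.3.3, with 1 mean per group, empirical Bayes variances and Benjamini-Hochberg adjustment over 14557 genes (12 residual degrees of freedom). Calls used an adjusted p under 0.05. The fit and the correlations were tested on simulated data. SE values are those of the moderated fit. Promoter sequences are RefSeq's of GRCr8.

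Lcn2, the lists and the alternatives were chosen with earlier results of these data known. Named genes were a set of known Lcn2 partners, regulators and co-induced genes where measured, the called members of each list or otherwise the 4 with the largest moderated t for eNampt against control, the 3 brightest of each marker list, and the genes most like Lcn2 (6 highest and 4 lowest within-group r, 6 smallest distances). Predicted loci and chemosensory receptor genes were left out of the last. The small number of arrays limits the precision, and the number of cultures or animals behind them is unknown. Alternatives were repeated quantile normalization, median centring, a replicate block, array weights, fits to pairs of groups, a filter on dim genes, an intensity trend with robust variances, and arrays left out.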

Additional observations from a re-analysis of the deposited data

Results flagged for a closer look

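On 17 of 244 group values checked, a single array stood apart from the other 3 by more than Dixon's critical ratio for groups of 4. By chance about 1 in 20 would do so. The check did not cover all genes named here: most cell type markers, Sod2 and Ccl7 were left out. Ccl7, for example, was at 2.12, 5.84, 1.99 and 1.98 on control arrays 1 to 4. Lcn2 was flagged in no group, which is a description, since its spread within groups was part of how it was chosen. With 4 arrays a wide spread can also pass, as in control, where its SD was 1.21. Low arrays were eNampt array 2 for C3 (4.24 against 6.08 to 6.35 on the others) and Mmp9 (4.23 against 4.75 to 4.82), CRH array 3 for Mmp9 (2.75), Bmp6 (5.55) and Tspo (5.51), CRH array 2 for Slc39a8 (1.66), IL-6 array 1 for Zc3h12a (2.61) and Col1a2 (6.06), IL-6 array 2 for Gh1 (5.19), IL-6 array 4 for Il6 (3.74) and control array 2 for Obp1f (1.86). High arrays were eNampt array 2 for Hp (4.47 against 1.52 to 1.83), IL-6 array 1 for Hp (5.65 against 1.57 to 2.01), CRH array 4 for Tfrc (4.70) and Tbx19 (1.61), control array 4 for Il17f (2.80) and eNampt array 4 for Clec4a2 (2.01).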

How the results depend on the processing

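Of 203 values recomputed under other settings, 185 were labelled the same. Differences and ranks had to stay within the replicate spread, and correlations within 0.2. Counts had to equal the reported count or stay within 1.5 times of it. Counts of 0 that stayed 0, as for IL-6 and CRH against control, are among the 185. So are Lcn2 differences with a replicate block or with only the arrays of both groups, which cannot change in this design. For Lcn2 differences the replicate spread was 0.738. The difference of 0.46 for IL-6 against control without control array 3 was therefore labelled the same as 0.98. For Lcn2 the differences without control arrays 3 and 4 were 2.11 for eNampt, 0.043 for IL-6 and 0.10 for CRH. Leaving out 1 array gave 2.52 to 3.43 for eNampt against control, 0.46 to 1.36 for IL-6, 0.52 to 1.42 for CRH, 1.71 to 2.21 for eNampt against CRH, 1.92 to 2.25 for eNampt against IL-6 and -0.15 to 0.36 for CRH against IL-6. Counts of called pathway genes for eNampt against control, 2 as reported, were 0 without control arrays 3 and 4, 0 with only the arrays of both groups, and 2 to 4 with 1 array left out (3 without eNampt array 3, with Cxcl6), the 4 being without control array 2 (C3, Pla2g2a, Sod2 and Ccl7). Against CRH they were 1 (Csf2) with only the arrays of both groups, and 0 to 3 with 1 array left out, the 0 being without CRH array 2 and the 3 without CRH array 4 (with Cp). Against IL-6 they were 4 with array weights, 3 (C3, Pla2g2a and Csf2) with median centring, with the filter on dim genes and with the intensity trend, 1 (Csf2) with only both groups, and 1 to 2 with 1 array left out. They were 1 (Pla2g2a) without eNampt array 1 or 4 or IL-6 array 1, 2 or 4. Fits with fewer arrays have fewer degrees of freedom. Otherwise the cause was not tested. Ccl7, called without control array 2, was at 5.84 on that array and at 1.98 to 2.12 on the other control arrays. The within-group r was -0.72 for SPATA45 after repeated quantile normalization, and without control arrays 3 and 4 it was -0.62 for Clec4a2 and -0.62 for Styx-ps1. Same-numbered arrays deviated together (r over 0.1) in 8 of 24 pairs. Among eNampt, CRH and control, r was 0.135 to 0.196 for array 1 and 0.234 to 0.305 for array 3. For arrays 2 and 4 of these groups it was -0.015 to 0.127, and in pairs with an IL-6 array -0.184 to 0.148. Whether arrays of the same number belong together is not given by the labels and was not tested. With the replicate number as a block, 2 pathway genes were called for eNampt against control. Each group has arrays 1 to 4, so the block cannot change the Lcn2 difference of 3.05. Its SE was 0.474 with the block and 0.487 without. Counting all probe sets, the median place of Lcn2 was in the top 0.733% after eNampt and 6.04% in control.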
